A study of Mus musculus with 53 samples.

Results

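The 9 genes described here encode the pore-forming subunits of the AMPA receptors (Gria1 to Gria4) and of the kainate receptors (Grik1 to Grik5). They were chosen by symbol, and all 9 were among the 12372 genes of the count table. RNA was sequenced from brainstem, cerebellum, cortex and striatum of male wild-type C57BL/6 mice and of male hemizygous MJD84.2 mice, a model of spinocerebellar ataxia type 3 (SCA3). The SCA3 mice have a mutant copy of human ATXN3 beside their intact mouse Atxn3, and its promoter, that of the human gene, is not restricted to a cell type. The 14 mice (8 wild-type and 6 SCA3) were 74 to 77 weeks old, received no treatment and had been tested for motor behaviour. The wild-type mice were 75 or 77 weeks old, whereas SCA3 mice 9083513, 9083514 and 9083515 were 74. Body weight was 28.2 to 34.7 g in SCA3 and 37.2 to 53.6 g in wild-type mice. Each mouse gave at most 1 library per region, 53 in all. Wild-type mice gave 8 libraries of brainstem, 7 of cerebellum, 7 of cortex and 8 of striatum, and SCA3 mice gave 6, 6, 6 and 5 of the same regions.

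AMPA and kainate receptors are glutamate-gated cation channels made of 4 subunits, and AMPA receptors carry most fast excitatory transmission in the brain. Gria1 to Gria4 encode the AMPA subunits GluA1 to GluA4. Grik1 to Grik3 encode the kainate subunits GluK1 to GluK3, which form channels on their own, whereas GluK4 and GluK5 (Grik4 and Grik5) need one of those partners. The ion flow through the pore depends on a position in the pore loop called the Q/R site, where the enzyme ADARB1 can edit the glutamine codon of Gria2, Grik1 and Grik2 RNA so that arginine is read. Edited GluA2 keeps calcium out of AMPA receptors.

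The coding sequence around that site is shown because editing there changes the channel and the site lies in the pore loop of every subunit. The sequences are 51 bases of coding sequence, 5′ to 3′ on the strand of the gene, read from the GRCm38 genome with the GENCODE M21 transcripts. Capitals mark the codon at the Q/R site, or at the position aligned with it. In most genes the window crosses an exon junction.
Gria1: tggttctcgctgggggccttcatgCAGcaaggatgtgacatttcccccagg
Gria2: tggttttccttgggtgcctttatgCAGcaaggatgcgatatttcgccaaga
Gria3: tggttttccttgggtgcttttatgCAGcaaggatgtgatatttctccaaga
Gria4: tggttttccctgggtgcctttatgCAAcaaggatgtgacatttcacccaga
Grik1: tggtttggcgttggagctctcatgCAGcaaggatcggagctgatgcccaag
Grik2: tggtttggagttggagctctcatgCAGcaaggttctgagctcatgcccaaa
Grik3: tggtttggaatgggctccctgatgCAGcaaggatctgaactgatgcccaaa
Grik4: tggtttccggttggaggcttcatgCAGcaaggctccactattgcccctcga
Grik5: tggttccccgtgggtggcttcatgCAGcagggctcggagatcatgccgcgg

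The genome encodes glutamine at this position in all 9 genes, as CAG in 8 and as CAA in Gria4. The codon of Gria2 lies in exon 11 of 16 on the minus strand, at chr3:80706911-80706913. Those of Grik1 (exon 13 of 18, chr16:87940542-87940544) and Grik2 (exon 13 of 17, chr10:49244329-49244331) are also on the minus strand. Within the window Gria3 differed from Gria2 at 3 bases, Gria4 at 6 and Gria1 at 10, and the kainate genes differed from it at 15 to 19. Over the whole translated coding sequences, the AMPA subunits shared 67.8% to 73.1% of residues with each other, the kainate subunits 41.5% to 79.4%, and an AMPA and a kainate subunit 34.5% to 41.8%. Read counts per gene do not show how much of the RNA was edited, so editing was not measured here.

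Library totals ranged from 31.7 M to 76.7 M counts and the RNA integrity number (RIN) from 5.7 to 9. The lowest count of any of the 9 genes in any library was 364, so counting error was small beside the spread between mice. Levels are given as CPM (counts per M reads after TMM scaling, where M is 10 to the power 6). The libraries did not all hold a single tissue. In striatum, the summed CPM of 11 measured thalamic neuron markers was 1729 in wild-type mouse 7267058 and 2783 in wild-type mouse 7267059, against 245 to 719 in the other 11 libraries. The same list summed to between 1494 and 1940 CPM in cerebellum libraries, so a high sum alone is not specific to thalamus. The summed CPM of 11 measured striatal projection neuron markers ranged from 2693 to 11220 in wild-type striatum and from 6928 to 10410 in SCA3 striatum. Cortex libraries were also mixed. Their summed CPM for that striatal list ranged from 912 to 4795, and the 5 measured cortical glutamatergic markers summed to between 446 and 2159 CPM in cortex and between 326 and 1066 CPM in striatum. Of 9 listed brainstem neuron markers, 8 were not analysed here. Cerebellum was distinct, with 1960 to 3100 CPM of 4 granule cell markers against at most 179 CPM in any other library. In such bulk samples fewer cells of a type and less RNA per cell cannot be told apart.

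The first question was where in the wild-type brain each subunit was expressed. Among the AMPA genes, Gria4 was highest in cerebellum, Gria1 and Gria2 were lowest in brainstem, and Gria3 was lower in both hindbrain regions than in the forebrain. In wild-type cerebellum Gria4 ranged from 457 to 597 CPM with a median of 494. It was 207 to 272 CPM (median 236) in brainstem, 107 to 195 (median 133) in striatum and 120 to 150 (median 136) in cortex. The cerebellum and brainstem ranges did not overlap each other or those of the forebrain regions. GluA4 is among the AMPA subunits of Bergmann glia and granule cells in cerebellum and of many fast-spiking interneurons. The log2 difference of cerebellum over cortex was 1.93 (SE 0.10, edgeR FDR 5.9e-71), and cortex and striatum did not differ detectably (log2 difference -0.03, 95% interval -0.23 to 0.16, FDR 0.83).

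Gria2 was higher in cerebellum than in brainstem, and higher still in the forebrain. It ranged from 336 to 508 CPM (median 365) in wild-type brainstem and from 580 to 706 (median 660) in cerebellum. In cortex it was 759 to 935 CPM (median 833) and in striatum 470 to 1169 (median 894). The brainstem values lay below every cerebellar and cortical value, and 7 of the 8 striatal values (789 to 1169 CPM) lay above every brainstem and cerebellar value. The remaining striatal value, 470 CPM in mouse 7267059, was that of the library with the highest thalamic marker sum. Cerebellum exceeded brainstem by 0.72 (SE 0.11, FDR 3.2e-10) and cortex exceeded cerebellum by 0.39 (SE 0.12, FDR 0.0013) on the log2 scale in edgeR, but striatum and cortex were not separated (FDR 0.68). Gria1, which encodes the subunit best known for activity-dependent insertion at synapses, was 167 to 416 CPM (median 215) in brainstem. The highest brainstem values of either genotype, 416, 336 and 305 CPM, were those of wild-type mouse 7267055 and SCA3 mice 9083515 and 9083514. The same libraries had the highest brainstem thalamic marker sums (886, 845 and 862 CPM, against 454 to 770 CPM in the others), and the part of these markers in the Gria1 values was not tested. Elsewhere Gria1 was higher. It was 393 to 599 CPM (median 497) in cerebellum, 374 to 760 (median 523) in cortex and 322 to 825 (median 577) in striatum. Those last 3 regions overlapped, and none of their pairs differed in edgeR (FDR 0.29 to 0.69), whereas each exceeded brainstem by 1.04 to 1.23 on the log2 scale.

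Gria3, which is X-linked, was higher in the forebrain than in brainstem or cerebellum, though present in all 4 regions. It was 225 to 432 CPM (median 339) in wild-type cortex and 201 to 351 (median 256) in striatum. In brainstem it was 145 to 184 CPM (median 166) and in cerebellum 154 to 181 (median 172). The brainstem and cerebellum values lay below every forebrain value, and the log2 difference between these 2 regions was -0.00 (95% interval -0.21 to 0.21, FDR 0.99). Cortex exceeded striatum by 0.31 (SE 0.11, FDR 0.016). That call was lost with the mouse as a fixed block in the wild-type mice with both regions (log2 difference 0.28, FDR 0.18) and without mouse 7267058 (0.20, FDR 0.19), mouse 9083373 (0.23, FDR 0.12) or both striatum libraries rich in thalamic markers (0.26, FDR 0.070).

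**Figure D1:**
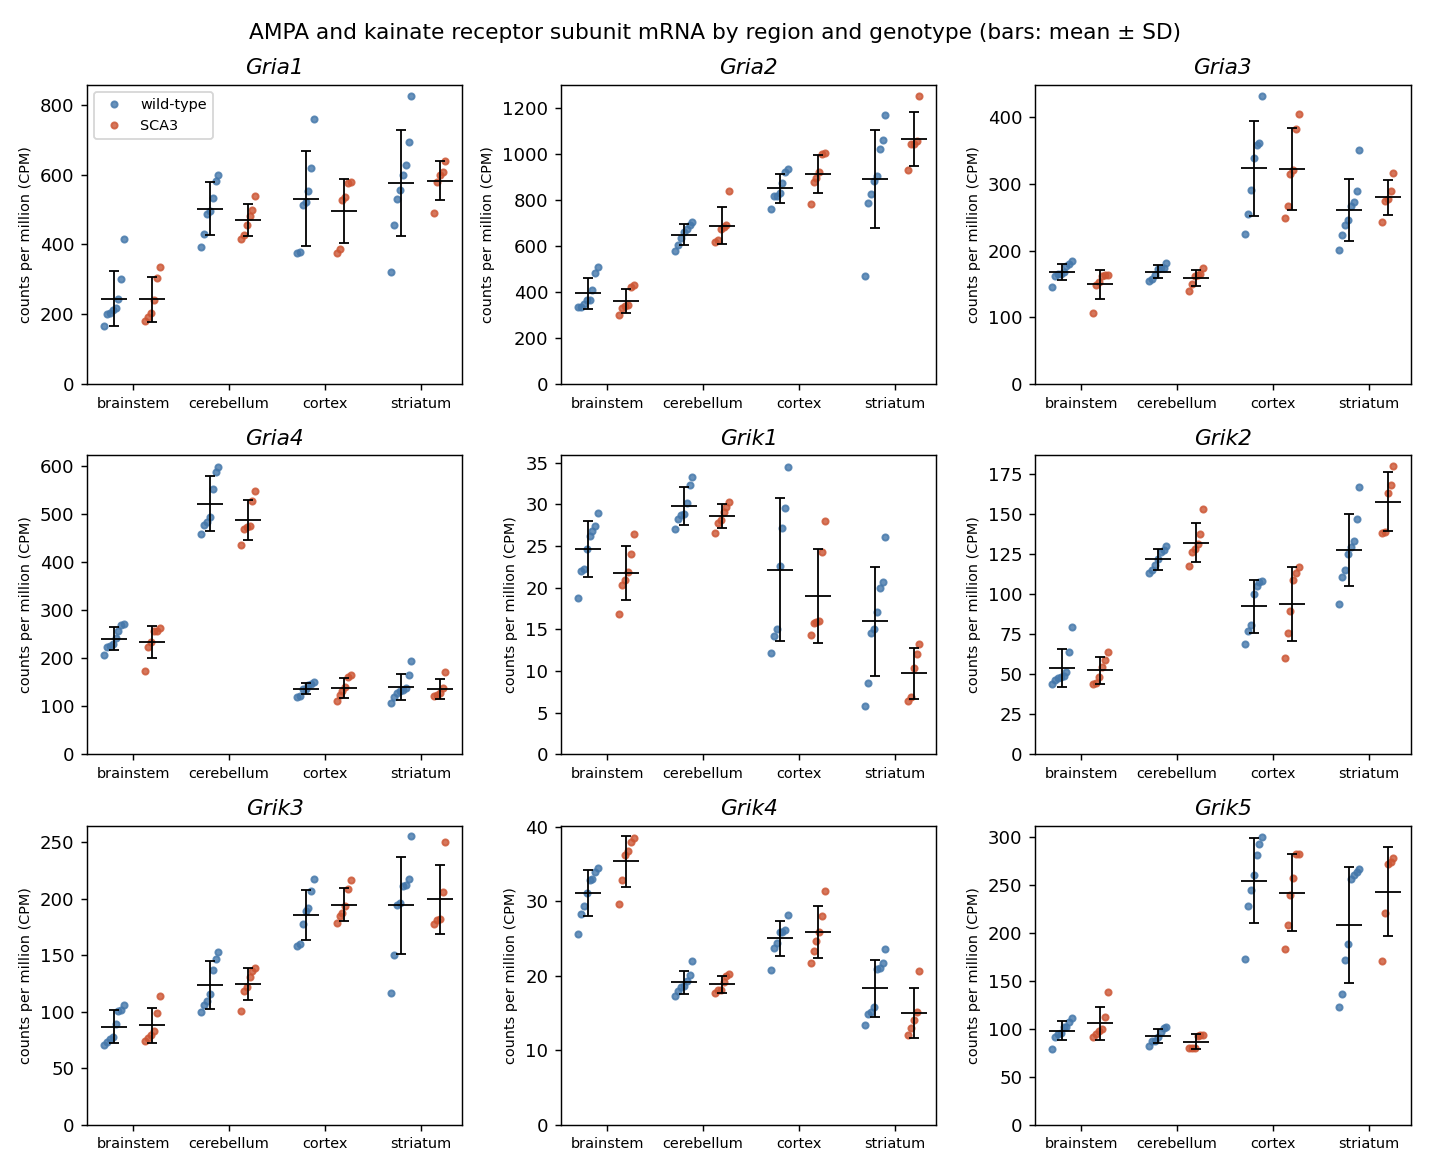
CPM of each gene (vertical axes, starting at 0) in every library by region and genotype, with black bars for mean and SD. Gria4 stands at 435 to 597 CPM in all cerebellum libraries, and SCA3 and wild-type points overlap in all 36 pairs of groups (share over all genes not computed).

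The kainate genes divided in another way, with Grik5 and Grik3 high in the forebrain, Grik2 low in brainstem and Grik4 highest in brainstem. Grik5 was 173 to 300 CPM (median 260) in wild-type cortex and 122 to 266 (median 222) in striatum. It was 79.3 to 111 CPM (median 98.8) in brainstem and 82.6 to 102 (median 91.0) in cerebellum. Every forebrain value lay above every brainstem and cerebellum value, and cortex exceeded cerebellum by 1.46 (SE 0.14, FDR 2.2e-24). Neither brainstem against cerebellum (FDR 0.58) nor cortex against striatum (FDR 0.076) passed. With the mouse as a random block in limma-voom, cortex exceeded striatum by 0.32 (FDR 0.040), and without mouse 9083371 it did so by 0.37 (FDR 0.034). Grik3 was 117 to 255 CPM (median 204) in striatum, 159 to 217 (median 190) in cortex, 99.9 to 153 (median 116) in cerebellum and 70.5 to 106 (median 83.8) in brainstem. All of its regional pairs passed the edgeR test except striatum and cortex (FDR 0.72).

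Grik2 encodes GluK2, the kainate subunit of cerebellar granule cells and hippocampal mossy fibre synapses. In wild-type mice it ranged from 94.0 to 167 CPM (median 127) in striatum and from 113 to 130 (median 122) in cerebellum. It was 68.9 to 108 CPM (median 100.2) in cortex and 44.2 to 79.7 (median 48.8) in brainstem. Striatum and cerebellum did not differ (FDR 0.63), cerebellum exceeded cortex by 0.40 (SE 0.13, FDR 0.0038) and cortex exceeded brainstem by 0.78 (SE 0.13, FDR 2.7e-09). Grik4 followed the opposite order, with 25.6 to 34.5 CPM (median 32.0) in brainstem, 20.8 to 28.2 (median 25.8) in cortex, 17.3 to 22.04 (median 18.6) in cerebellum and 13.3 to 23.6 (median 18.3) in striatum. Brainstem exceeded cortex by 0.31 (SE 0.10, FDR 0.0044) and cortex exceeded cerebellum by 0.39 (SE 0.11, FDR 5e-04), and only cerebellum and striatum were not separated (FDR 0.59).

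Grik1 had the lowest mean CPM of the 9 over all libraries and had the most uneven forebrain values. It ranged from 27.1 to 33.2 CPM (median 28.9) in wild-type cerebellum and from 18.7 to 28.9 (median 25.4) in brainstem. The cortex values were 12.2 to 34.4 CPM (median 22.5) and the striatum values 5.80 to 26.0 (median 16.0). The coefficient of variation in wild-type mice was 7.5% in cerebellum, 13.8% in brainstem, 38.8% in cortex and 41.2% in striatum. Cerebellum exceeded striatum by 0.90 (SE 0.21, FDR 2.6e-05) and brainstem exceeded striatum by 0.63 (SE 0.20, FDR 0.0033), and the other 4 pairs did not pass (FDR 0.058 to 0.52). With the mouse as a fixed block, cerebellum exceeded both brainstem (log2 difference of brainstem over cerebellum -0.24, FDR 0.012) and cortex (0.54, FDR 0.036). Cerebellum against cortex was also called in limma-voom with the mouse as a random block (0.56, FDR 0.0090) and without it (0.57, FDR 0.012), and without mouse 7267055 (0.59, FDR 0.017) or 9083372 (0.52, FDR 0.041). Cortex against striatum was called without mouse 7267059 (0.54, FDR 0.040), mouse 9083373 (0.72, FDR 0.0039) or both thalamic-rich striatum libraries (0.56, FDR 0.037). In wild-type cortex, Grik1 was 34.4, 29.6, 27.1 and 22.5 CPM in mice 7267055, 9083372, 9083371 and 7267058, where the cortical marker sums were 450, 727, 449 and 1069 CPM. It was 15.01, 14.2 and 12.2 CPM in mice 9083375, 9082857 and 9083373, where those sums were 988, 1949 and 2159 CPM. The part of tissue make-up in the cortical values was not tested.

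Of the 54 regional tests (9 genes in 6 pairs of wild-type regions), 39 passed an FDR of 0.05, and region calls were frequent among all genes. Brainstem differed from cerebellum in 6 of the 9 genes (72.6% of all genes tested), of which 5 were higher in cerebellum (35% of all genes). It differed from cortex in 8 (65.4%), of which 6 were higher in cortex (34.3%), and from striatum in all 9 (64.2%), of which 6 were higher in striatum (32.7%). Cerebellum differed from cortex in 7 (69.7%) and from striatum in 6 (69.5%), and cortex differed from striatum in 3 (34.4%), namely Gria3, Grik2 and Grik4. These counts were near or above the background shares. The median size of the log2 difference was 1.09 over the 9 genes and 0.26 over all genes for brainstem against striatum, and 0.29 and 0.15 for cortex against striatum.

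Levels of different genes were compared per kb of exon. In wild-type mice the 4 AMPA genes together reached 148 ± 15.8 CPM per kb in brainstem (SD, n = 8), 260 ± 23.4 in cerebellum (n = 7), 252 ± 33.5 in cortex (n = 7) and 252 ± 44.5 in striatum (n = 8). The 5 kainate genes together reached 51.9 ± 5.03, 60.4 ± 4.05, 107 ± 11.3 and 96.1 ± 20.9 CPM per kb in the same regions. The AMPA total was thus lowest in brainstem, whereas the kainate total was low in both hindbrain regions. Gria4 made up 31.7% ± 1.76 of the AMPA total in cerebellum (SD, n = 7) and 26.1% ± 3.93 in brainstem (n = 8), but 8.71% ± 1.32 in cortex (n = 7) and 9.28% ± 3.78 in striatum (n = 8). Gria3 went the other way between cerebellum (11.8% ± 0.52, n = 7) and cortex (23.3% ± 4.01, n = 7). The Gria2 share was 32.5% ± 2.3 in cortex (n = 7), 33.3% ± 3.43 in striatum (n = 8), 23.9% ± 2.16 in cerebellum (n = 7) and 25.3% ± 2.3 in brainstem (n = 8).

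In the kainate family Grik5 held the largest share per kb of exon in all 4 regions, from 40.8% ± 2.40 in cerebellum (SD, n = 7) to 62.9% ± 4.78 in cortex (n = 7). The Grik2 share was 19.5% ± 1.52 in cerebellum (n = 7) and 8.51% ± 2.16 in cortex (n = 7). The Grik4 share was 10.2% ± 1.88 in brainstem (n = 8) and 3.36% ± 1.14 in striatum (n = 8). These shares depend on the length used, since the genes differ in the untranslated sequence that the annotation gives them. Per kb of coding sequence, Gria2 was the largest AMPA share in all 4 regions (35.9% to 47.7%), and Grik5 was no longer the largest kainate share in cerebellum, where it held 22.8% against 32.4% for Grik2, or in striatum, where it held 34.8% against 35.2% for Grik3. The order of shares between genes therefore holds only for the length named.

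**Figure D2:**
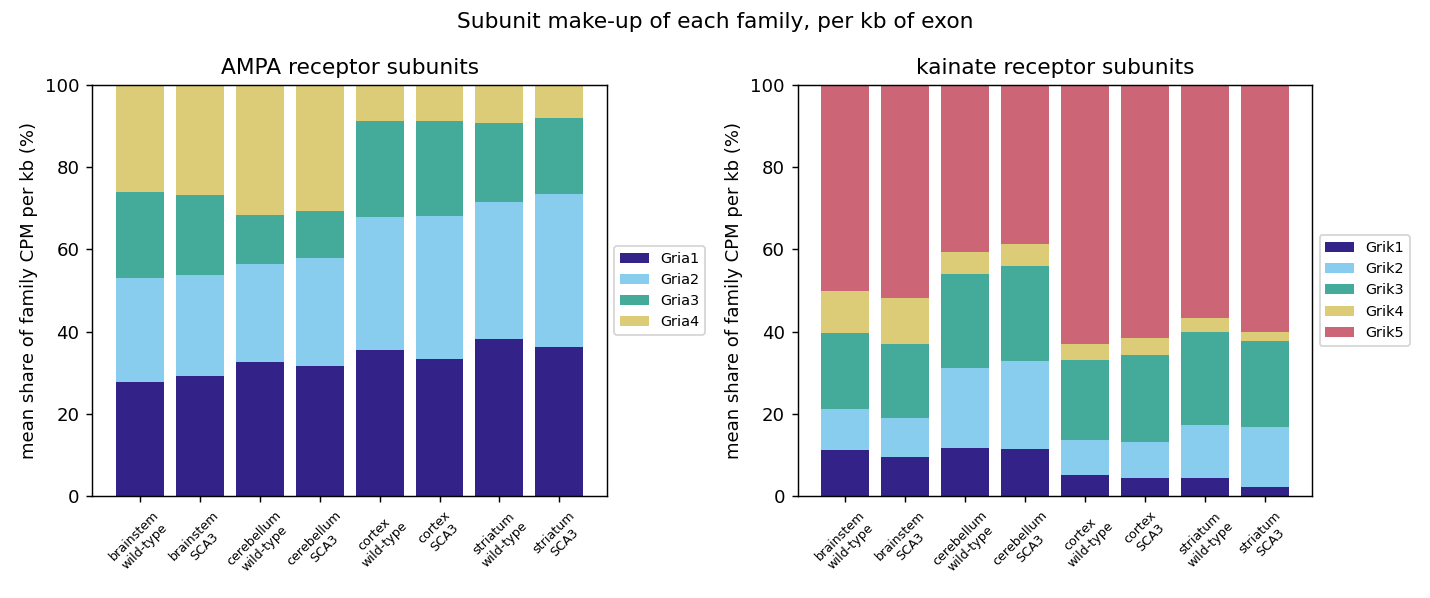
Mean share of each subunit gene in its family total of CPM per kb of exon (vertical axes, %), for the AMPA and kainate genes in each region and genotype. Gria4 takes 31.7% of the AMPA total in wild-type cerebellum and 8.71% in wild-type cortex, and the SCA3 bar of each region stands beside its wild-type bar.

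The genes whose profile over the 8 groups of region and genotype was most like that of each subunit were found by the root mean square (RMS) difference of centred log2 CPM. The closest were Arl4a for Gria1 (RMS 0.09), Crtc1 for Gria2 (0.07), Ptn for Gria3 (0.07) and Ubash3b for Gria4 (0.09). For the kainate genes they were Camk2d for Grik1 (0.09), Zbtb8a for Grik2 (0.10), Pip5k1a for Grik3 (0.08), Evc for Grik4 (0.09) and Slc7a4 for Grik5 (0.06). Among the 9 themselves, Gria2 and Grik3 had the smallest difference (0.14), followed by Gria1 and Gria2 (0.16). These values describe 8 group means that share their libraries.

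The second question was whether the subunits changed in SCA3 mice. Of 36 tests (9 genes in 4 regions), 1 passed an FDR of 0.05 in the edgeR likelihood ratio test, the lower level of Grik1 in striatum. In striatum 7.54% of all genes were called. No member was called in brainstem, where 1.92% of all genes were, in cerebellum (0.0647%) or in cortex (0.154%). In those 3 regions 0 of the 9 genes had an unadjusted p under 0.05 in that test. Over all 12372 genes, 1640 in brainstem, 205 in cerebellum and 503 in cortex did. In striatum 4 of the 9 genes did, against 2874 of all genes. edgeR's quasi-likelihood test, DESeq2 and limma-voom also called 0 members in brainstem, cerebellum and cortex. The values of the SCA3 and wild-type groups overlapped in all 36 pairs, and the share of all genes with such overlap was not computed. The median log2 fold change over the 9 genes was -0.04 in brainstem, -0.06 in cerebellum, 0.02 in cortex and 0.04 in striatum, against 0.00 over all genes in each region. The median size of the change was 0.22 in striatum, where it was 0.11 over all genes.

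**Figure D3:**
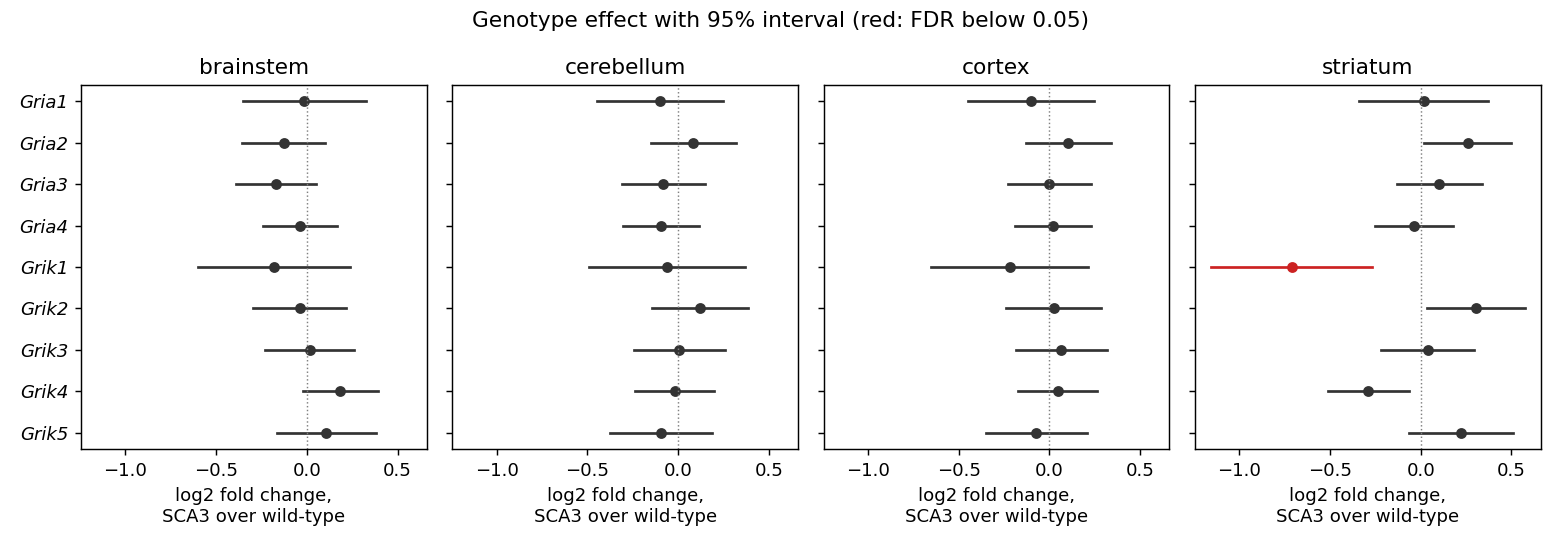
Log2 fold change of SCA3 over wild-type (horizontal axes) with its 95% interval for each gene in each region, red where the FDR was below 0.05. Grik1 in striatum, at -0.71, is the only red line.

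Grik1 encodes GluK1, a kainate subunit of interneurons and sensory pathways. In SCA3 striatum it was 6.83 CPM in mouse 7267054, 12.0 in mouse 7267056, 13.2 in mouse 9082853, 10.3 in mouse 9083514 and 6.35 in mouse 9083515. In wild-type striatum it ranged from 5.80 to 26.0 CPM with a median of 16.0. All 5 SCA3 values lay below the wild-type median, yet the lowest value of all belonged to a wild-type mouse. The log2 fold change was -0.71 (SE 0.23, 95% interval -1.16 to -0.27, FDR 0.036). That fit shares a single dispersion per gene across all regions. Grik1 varied more in striatum (coefficient of variation 41.2% in wild-type mice) than in cerebellum (7.5%). The SE and interval may therefore be too narrow for striatum. edgeR's quasi-likelihood test gave an FDR of 0.052 and limma-voom with the mouse as a random block 0.13. Leaving out any of 8 mice in turn (7267054, 7267056, 7267058, 7267059, 9083372, 9083373, 9083514 or 9083515) ended the call, with log2 fold changes of -0.80 to -0.57. Without both wild-type libraries richest in thalamic markers it was -0.62 (FDR 0.17).

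The tissue markers of the same libraries are given beside striatal Grik1. Grik1 was lowest in wild-type mouse 9082857 (5.80 CPM), in SCA3 mice 9083515 and 7267054, and in wild-type mouse 9083371 (8.51 CPM). In those 4 libraries Drd1, the dopamine receptor of direct pathway projection neurons, was 291 to 342 CPM and the striatal projection neuron markers summed to between 10090 and 11220 CPM. Grik1 was highest in wild-type mice 9083373 (26.0 CPM) and 7267059 (20.7 CPM), where Drd1 was 120 and 68.8 CPM, the striatal list summed to 3724 and 2693 CPM and the thalamic list to 719 and 2783 CPM. In the remaining SCA3 mice, 7267056, 9082853 and 9083514, the striatal list summed to 9781, 6928 and 7070 CPM with Grik1 at 12.0, 13.2 and 10.3 CPM. The thalamic list summed to between 247 and 516 CPM in SCA3 striatum and between 245 and 2783 CPM in wild-type striatum, and 6 of its 11 measured genes were themselves called lower in SCA3 striatum, led by Prkcd (log2 fold change -3.47, SE 0.50, FDR 4.2e-06). A marker score was also used, the mean over a list of log2 CPM centred for each gene within the region. It differs from the summed CPM. In the striatum libraries alone, the log2 fold change of Grik1 was -0.71 (FDR 0.30), -0.36 (FDR 0.80) with the thalamic marker score in the model, and -0.11 (FDR 1) with the striatal projection neuron score. In the mice numbered from 9083371 to 9083515 the log2 fold change of Grik1 was -1.05 (FDR 0.16). There the wild-type mice were 75 weeks old and the SCA3 mice 74. Whether tissue make-up accounts for the difference was not tested.

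**Figure D4:**
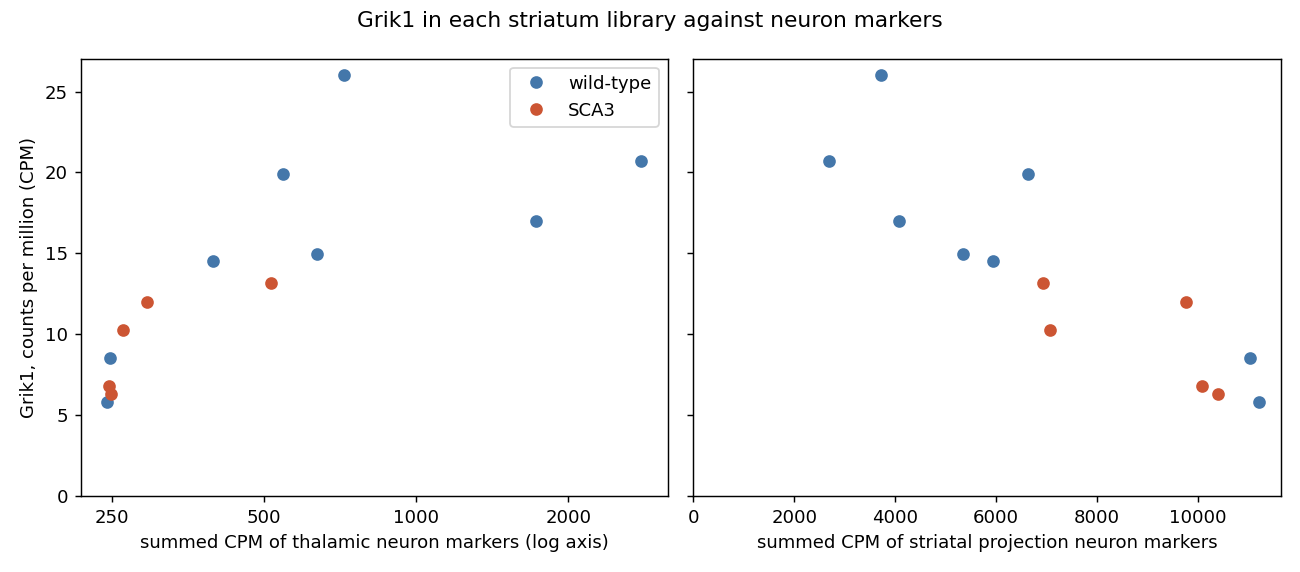
Grik1 (vertical axis, CPM) in each of the 13 striatum libraries against the summed CPM of thalamic markers (left, log axis) and of striatal projection neuron markers (right). Wild-type and SCA3 libraries with 10090 or more CPM of striatal markers all lie below 9 CPM of Grik1.

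The remaining striatal differences did not pass. Grik4 was 14.1, 12.1, 15.1, 20.6 and 13.0 CPM in SCA3 mice 7267054, 7267056, 9082853, 9083514 and 9083515, against 13.3 to 23.6 (median 18.3) in wild-type mice. Its log2 fold change was -0.29 (SE 0.11, FDR 0.093), and 4 of 5 SCA3 values lay below the wild-type median. It was called without wild-type mouse 9082857 (-0.33, FDR 0.040), wild-type mouse 9083371 (-0.34, FDR 0.027) or SCA3 mouse 9083514 (-0.43, FDR 0.0076). These were the only 3 calls in 28 alternatives, over which the Grik4 change ranged from -0.43 to -0.09. Grik2 was 168, 179.8, 139, 138 and 163 CPM in the same SCA3 mice, all above the wild-type median of 127, and its fold change was 0.30 on the log2 scale (SE 0.14, FDR 0.15). Over 28 alternatives the Grik2 change ranged from 0.09 to 0.37, with 0 calls. Gria2 was 1057, 1254, 932, 1043 and 1044 CPM, also all above the wild-type median of 894, and it differed by 0.26 on the log2 scale (SE 0.12, FDR 0.18). Without wild-type mouse 7267059 the Gria2 difference was 0.16 (FDR 0.41). The wild-type ranges of 94.0 to 167 CPM for Grik2 and 470 to 1169 CPM for Gria2 overlapped them. Grik5 (0.22, SE 0.15, FDR 0.35), Gria3 (0.10, FDR 0.63), Grik3 (0.04, FDR 0.89), Gria4 (-0.04, FDR 0.87) and Gria1 (0.02, FDR 0.97) completed the set. Grik5 was at 0.14 (FDR 0.63) without mouse 7267059 and 0.05 (FDR 0.90) without both thalamic-rich libraries. With the thalamic or the striatal score in the striatum libraries alone, Grik5 was at -0.07 (FDR 0.92) and -0.08 (FDR 1), and Gria2 at 0.06 with either score (FDR 0.94 and 1).

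In brainstem the lowest FDR among the 9 genes was that of Grik4, the subunit with its highest wild-type level there. It ranged from 29.6 to 38.5 CPM (median 36.5) in SCA3 mice and from 25.6 to 34.5 (median 32.0) in wild-type mice, and 5 of 6 SCA3 values lay above the wild-type median. The log2 fold change was 0.19 (SE 0.11, 95% interval -0.02 to 0.39, FDR 0.45). Gria3 was 107 to 163 CPM (median 157) in SCA3 brainstem against 145 to 184 (median 166), with all 6 SCA3 values below the wild-type median, and Gria3 differed by -0.17 on the log2 scale (SE 0.11, FDR 0.53). Without SCA3 mouse 9083514, whose Gria3 value of 107 CPM was far below the other 5, the Gria3 difference was -0.10 (FDR 0.98). In cerebellum and cortex every FDR was 1. The largest change in cerebellum was that of Grik2 (0.12, 95% interval -0.14 to 0.38), and in cortex that of Grik1 (-0.22, 95% interval -0.65 to 0.21). Gria4 in cerebellum, where it was most abundant, was 435 to 547 CPM (median 474) in SCA3 and 457 to 597 (median 494) in wild-type mice (log2 fold change -0.10, 95% interval -0.31 to 0.11). These intervals leave room for changes of the sizes they span.

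Shares within the families were also set side by side for the genotypes. Grik1 held 2.25% ± 1.00 of the kainate total per kb of exon in SCA3 striatum (SD, n = 5) and 4.28% ± 2.3 in wild-type striatum (n = 8), and the ranges of 1.30% to 3.68% and 1.24% to 7.77% overlapped. Gria2 held 37.2% ± 1.46 of the AMPA total in SCA3 striatum (n = 5) and 33.3% ± 3.43 in wild-type striatum (n = 8). Gria4 held 30.7% ± 0.50 in SCA3 cerebellum (n = 6) and 31.7% ± 1.76 in wild-type cerebellum (n = 7). No p-value was computed for shares.

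The combined test over all 4 regions called none of the 9 genes (4.73% of all genes were called), with the lowest FDR for Grik1 (0.21) and Grik4 (0.29), both at an unadjusted p under 0.05. At that unadjusted p were 2051 of all 12372 genes. The test of region dependence called none of the 9 either (0.218% of all genes), and Grik4 had the lowest FDR (0.42) and the only unadjusted p under 0.05. Over all genes, 1125 were under that p. The quasi-likelihood test, DESeq2 and limma-voom called 0 members in both tests. The combined test called Grik1 without wild-type mouse 9082857 (FDR 0.017) and Grik4 without SCA3 mouse 9083514 (FDR 0.040). Between pairs of regions, the Grik4 effect in brainstem exceeded that in striatum by 0.47 (SE 0.16, 95% interval 0.17 to 0.78), which did not pass (FDR 0.075), in a comparison that called 1.71% of all genes. No member passed for cerebellum against striatum (0.0485% of all genes) or cortex against striatum (0.0404%) either. At an unadjusted p under 0.05 these comparisons had 1 member each, where 1179 and 728 of all 12372 genes were. Brainstem against striatum had 2 members at that p, Grik4 and Gria2 (log2 difference -0.39), where 2123 of all genes were. The Grik1 effect in striatum was therefore not shown to differ from that in brainstem (log2 difference of brainstem over striatum 0.53, FDR 0.38).

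Receptor number and placement depend on partner proteins, and 55 such genes in 6 lists were examined, of which 53 were measured. In striatum 12 of the 53 passed, 4 higher and 8 lower (7.54% of all genes were called there), in brainstem 1 (1.92% of all genes, so 1 of 53 is near the background share), and in cerebellum and cortex 0 (0.0647% and 0.154% of all genes). Of the 12 striatal calls, 10 held in the quasi-likelihood test, 8 in limma-voom and 7 in limma-voom with the mouse as a random block. The median log2 fold change of the 53 was 0.04 in striatum. Of 14 AMPA receptor auxiliary subunits, 2 fell in SCA3 striatum. Shisa6, which keeps AMPA receptors at synapses, was 8.91 to 19.1 CPM (median 10.7) in SCA3 and 10.4 to 72.8 (median 45.8) in wild-type mice (log2 fold change -1.86, SE 0.31, FDR 1.5e-05). Cacng5, a transmembrane AMPA receptor regulatory protein, was 12.4 to 15.9 CPM (median 14.8) in SCA3 and 14.9 to 68.2 (median 44.97) in wild-type mice (-1.54, SE 0.32, FDR 0.00067). Both sets of values overlapped at their low ends. In the same comparison 4 of 7 mature oligodendrocyte markers were called lower in SCA3 striatum (median log2 fold change over the 7 -0.67). So were 4 of 7 astrocyte markers (median -0.34). Of 6 microglia markers 0 were called (median -0.02). Of 5 oligodendrocyte precursor markers 1 was called higher and 0 lower (median -0.009). The mature oligodendrocyte list summed to between 5662 and 8581 CPM in SCA3 and between 6257 and 18440 CPM in wild-type striatum, and the astrocyte list to between 1189 and 1574 and between 1342 and 2919 CPM. The 2 thalamic-rich wild-type libraries had the highest sums of both lists, and the part of glial markers in the striatal results, Grik1 included, was not tested. None of the 3 measured kainate receptor auxiliary and clustering genes passed.

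Of 16 scaffold and trafficking genes, 3 rose and 2 fell in SCA3 striatum. Dlg1 (0.33, SE 0.09, FDR 0.0072) and Dlg2 (0.26, SE 0.09, FDR 0.044), which encode synaptic scaffolds, and Gripap1 (0.22, SE 0.07, FDR 0.033), whose product acts in receptor recycling, were higher. Homer2 (-1.08, SE 0.22, FDR 0.00044), a postsynaptic scaffold, and Grip2 (-0.65, SE 0.18, FDR 0.010), a binding partner of GluA2, were lower. Of 7 secreted and transsynaptic organisers, Lrrtm3 alone passed (0.43, SE 0.13, FDR 0.018). Of 7 measured glutamate supply and uptake genes, Slc17a6, the vesicular glutamate transporter of thalamic and brainstem neurons, fell by 2.48 on the log2 scale (SE 0.71, FDR 0.032) and Slc1a6, the glutamate transporter best known from Purkinje cells, by 0.82 (SE 0.21, FDR 0.0056).

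Adarb1, the enzyme of the Q/R site described above, and Adarb2, its relative without known editing activity, were the 2 of 6 assembly and editing genes that passed. In SCA3 striatum Adarb1 was 186, 189, 269, 205 and 177 CPM in mice 7267054, 7267056, 9082853, 9083514 and 9083515. In wild-type striatum it was 527 CPM in mouse 7267058 and 896 in mouse 7267059, and 188 to 228 CPM in the other 6 mice. The 2 high values came from the libraries richest in thalamic markers. Its log2 fold change was -0.72 (SE 0.21, FDR 0.020) with these libraries and -0.06 (FDR 0.84) without them, and 0.04 (FDR 0.97) in the striatum libraries alone with the thalamic marker score. Adarb2 changed from -0.91 (FDR 0.027) to -0.25 (FDR 0.61) without them, and Slc17a6 from -2.48 to -0.84 (FDR 0.63).

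Without those 2 libraries 4 of the 12 striatal calls held, those of Cacng5 (-1.43, FDR 0.0071), Shisa6 (-1.57, FDR 0.00078), Homer2 (-0.94, FDR 0.0080) and Slc1a6 (-0.75, FDR 0.040). The remaining libraries still differed in thalamic markers: Prkcd was 180.3, 102, 101 and 72.4 CPM in wild-type mice 7267055, 9083372, 9083373 and 9083375, 19.9 and 15.1 CPM in wild-type mice 9082857 and 9083371, and 16.1 to 23.2 CPM in SCA3 mice. In the striatum libraries alone, 2 of the 12 passed without a score and 0 with the striatal projection neuron score. With that score Cacng5 was at -0.84 (FDR 0.16) and Shisa6 at -0.80 (FDR 0.46). With the thalamic marker score only Cacng5 passed (-1.21, FDR 0.044). In the mice numbered from 9083371 to 9083515 alone, 4 wild-type and 2 SCA3 in striatum, 0 of the 53 were called, where 30 of all 12372 genes were.

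**Figure D5:**
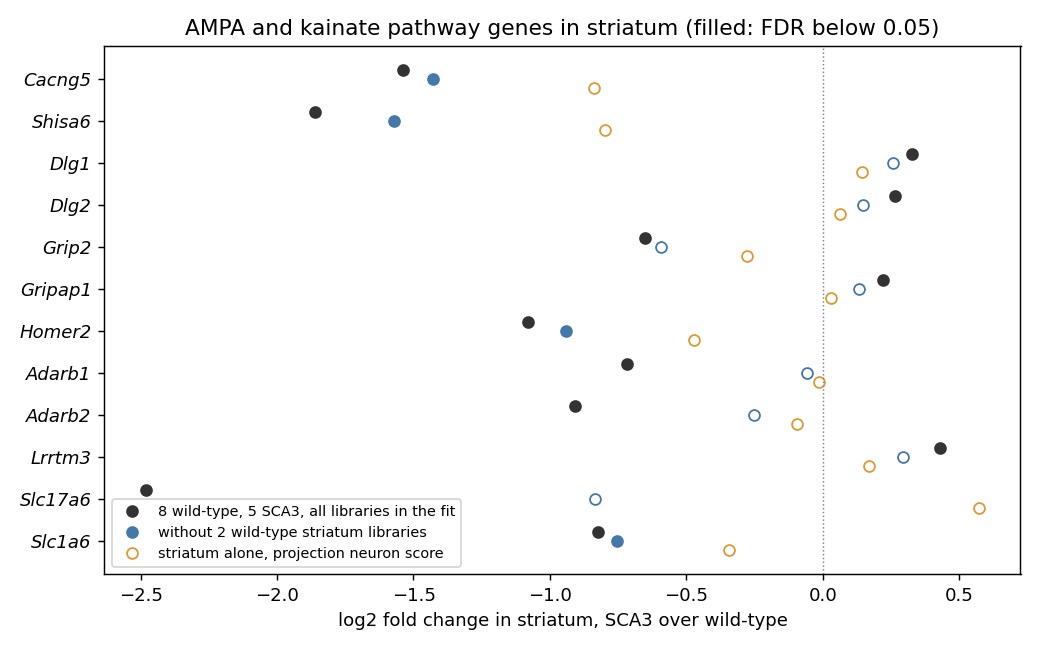
Log2 fold change in striatum (horizontal axis) of the 12 partner genes that passed, in the fit of all libraries, without the wild-type striatum libraries of mice 7267058 and 7267059, and in the striatum libraries alone with the striatal projection neuron score. Filled points had an FDR below 0.05, and the filled points of the second setting are Cacng5, Shisa6, Homer2 and Slc1a6.

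In brainstem the gene that passed was Slc1a2, which encodes GLT-1, the main astrocytic glutamate transporter. It was 1178 to 1551 CPM (median 1383) in SCA3 and 1582 to 3230 (median 2508) in wild-type mice, so the groups did not overlap (the share over all genes was not computed). The log2 fold change was -0.83 (SE 0.12, FDR 2.4e-08). Brainstem RIN was 7.4 to 8 in SCA3 and 6.3 to 7.6 in wild-type mice, and mean depth was 64.8 M and 50.5 M counts. With RIN as a covariate the log2 fold change was -0.74 (FDR 8.7e-07). The 7 astrocyte markers, which do not include Slc1a2, summed to between 2404 and 4087 CPM (median 3039) in SCA3 and between 2460 and 5787 (median 4338) in wild-type brainstem, and 3 of them (Gja1, Aldoc and Fgfr3) were called lower, by 0.58, 0.35 and 0.29 on the log2 scale. The 7 mature oligodendrocyte markers summed to between 8747 and 15040 CPM (median 11380) in SCA3 and between 9814 and 20620 (median 18130) in wild-type brainstem. The part of both lists in the Slc1a2 result was not tested. Slc1a2 also passed the combined test (FDR 1.3e-07) and that of region dependence (FDR 0.036). In the combined test Shisa6, Cacng5, Homer2, Dlg1 and Slc1a6 passed as well, and Shisa6 passed region dependence (FDR 0.031). Slc1a2 and Shisa6 each passed region dependence in 10 of 22 alternatives, and both failed in the quasi-likelihood test (FDR 0.16 for each) and in limma-voom (FDR 0.20 and 0.32). Of the combined calls, that of Slc1a2 held in 22 of 22 alternatives and that of Slc1a6 in 9. In limma-voom with the mouse as a random block, Slc1a2 (FDR 0.00036) and Dlg1 (FDR 0.032) held. Shisa6 (FDR 0.089), Cacng5 (FDR 0.17), Homer2 (FDR 0.051) and Slc1a6 (FDR 0.34) were lost there, and limma-voom without the block lost them too.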

How the data were processed

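The file deposited by the authors holds unnormalised counts of reads for each gene in 53 brain libraries. Per the study's methods, libraries were prepared from poly-A RNA without keeping strand, and the authors trimmed reads with Sickle and cutadapt, aligned them to GRCm38 with STAR, counted uniquely aligned reads per RefSeq gene with HTSeq without strand, and kept genes averaging above 4 CPM. The submitters' processing notes name STAR 2.3.0e and HTSeq 0.6.1. In GENCODE M21 no gene on the opposite strand overlaps any of the 9 subunit genes. Small RNA genes on the same strand share 19 to 59 exon bases with Gria2, Gria3, Gria4 and Grik4. The RefSeq models used for counting were not checked for overlaps. Library totals ranged from 31.7 M to 76.7 M counts.

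From these counts, TMM-scaled CPM were computed, and 8 groups of region and genotype were fitted over all 53 libraries with edgeR 4.0.16 (R 4.3.3) as in the study, with likelihood ratio tests and Benjamini-Hochberg adjustment over all 12372 genes. Calls used an FDR below 0.05. Standard errors come from the fitted negative binomial model, in which all 53 libraries share the dispersion of a gene. Exon lengths were summed over the protein-coding GENCODE transcripts and may differ from the RefSeq models used for counting. Alternatives used DESeq2 1.42.0 and limma 3.58.1, among others. The edgeR genotype tests were also run on simulated counts, with the outcome not reported here.

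The text names all 9 subunits, partner genes called in at least 1 region, markers where a list is described, and for each subunit the closest of the 3 genes with the smallest RMS profile difference (log2 CPM with a prior count of 2). The subunits, lists and rule were chosen with earlier results of these data known.

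Regions are paired through the mouse they came from. For each of the 6 region pairs, the departures of a mouse's libraries from their group means had an average Pearson r between 0.0904 and 0.186 (12 to 13 mice). A fixed block for the mouse was fitted only between wild-type regions, since each mouse has a single genotype. Each mouse is a separate animal, and no 2 libraries of a group agreed within sampling noise.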

Additional observations from a re-analysis of the deposited data

Results flagged for a closer look

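In 2 of the 72 groups of values examined (9 genes in 8 groups), 1 library lay far from the others by Dixon's test at 95%, where chance alone gives about 1 in 20. Gria2 in SCA3 cerebellum was 841 CPM in mouse 7267056, against 619 to 694 CPM in the other 5 mice. Gria3 in SCA3 brainstem was 107 CPM in mouse 9083514, against 148 to 163 CPM in the other 5 mice. That library also had the highest thalamic marker sum of the SCA3 brainstem libraries, 862 CPM. Without it the Gria3 difference in brainstem was -0.10 in place of -0.17 on the log2 scale, and neither value passed (edgeR FDR 0.98 and 0.53).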

How the results depend on the processing

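The count of members called in brainstem, cerebellum and cortex was 0 under every alternative run, and those of the 6 regional pairs stayed within 1.5 times the reported counts. In striatum the count of 1 (Grik1) became 0 with edgeR's quasi-likelihood test, with limma-voom with or without the mouse as a random block, with a RIN of at least 7 (49 libraries), in the striatum libraries alone with or without either marker score, without the 2 wild-type libraries rich in thalamic markers and in the mice numbered 9083371 to 9083515 alone. It held with DESeq2 (FDR 0.027), RLE size factors, a minimum of 10 counts, RIN as a covariate and the leading digits of the mouse number as a covariate. The settings using mouse numbers, the striatal score and the 2 left-out libraries were chosen after seeing the data. Partner genes called in striatum fell from 12 to 3 with a RIN of at least 7, 2 in striatum alone, 1 with the thalamic score, 0 with the striatal score or in those mice alone, and 4 without the 2 libraries. In the brainstem libraries alone with the thalamic score, partner genes called rose from 1 to 3. Calls over all genes rose from 238 to 671 in that setting. Adarb1 reversed to 0.037 with the thalamic score and Slc17a6 to 0.57 with the striatal score. The cause of these changes was not tested.

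Leaving out each mouse gave 0 to 2 members called in striatum and 5 to 16 partner genes, 1 to 2 partner genes in brainstem, 0 to 1 members in the combined test, and, between wild-type regions, 7 to 8 for cerebellum against cortex and 2 to 4 for cortex against striatum. Other counts did not move (0 members in brainstem, cerebellum, cortex and region dependence, 6, 8 and 9 for brainstem against cerebellum, cortex and striatum, and 6 for cerebellum against striatum). Adding the mouse as a random block (correlation 0.14) to limma-voom changed no genotype call among members: Grik1 in striatum was at -0.65 with the block and -0.64 without it (FDR 0.13 in both), and 0 members were called in either. Partner genes called in striatum numbered 8 with the block and 9 without it. Over all genes, calls ranged from 120 to 671 in brainstem (reported 238), 5 to 25 in cerebellum (8), 9 to 65 in cortex (19), 30 to 1833 in striatum (933), 260 to 1049 in the combined test (585) and 1 to 263 for region dependence (27). For the genotype effect in brainstem against that in striatum, quasi-likelihood and blocked fits called 108 and 367 genes (212 reported).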
